A study of Mus musculus with 8 samples.

Results

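The comparison described here is Hdac1 KO against WT in type 2 conventional dendritic cells (cDC2), and it covers 4 of the 8 libraries of the series, chosen by the subset and genotype in their titles. All were ATAC-seq libraries, in which the Tn5 transposase marks open chromatin, made from cDC2 sorted from mouse spleen as lineage-negative CD11c+MHCII+CD64-XCR1-CD11b+ cells. The 2 WT libraries came from mice with the floxed HDAC1 allele and no Cre, and the 2 KO libraries from HDAC1 Mx1-Cre mice. WT mice therefore carried the floxed allele too, and all mice, WT included, had received poly I:C, with the sort 2 weeks later. Mx1-Cre is driven by an interferon-responsive promoter, so recombination is not limited to dendritic cells, and WT and KO differed in the presence of Cre as well as in Hdac1. Mouse age and sex, and whether the libraries came from separate or pooled animals, were not given, so p-values speak only of how much these libraries vary, which may be technical variation. The 4 cDC1 libraries (XCR1+CD11b- cells, 2 WT and 2 KO, treated alike) entered the fits and serve as the comparison.

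HDAC1 is a class I histone deacetylase that works inside corepressor complexes such as Sin3, NuRD and CoREST, removing acetyl groups from histone tails. Conventional dendritic cells take up antigen and present it to T cells. cDC2, marked by SIRPα and CD11b and shaped by IRF4, KLF4, ZEB2 and Notch2, chiefly prime CD4+ T cells, whereas cDC1 depend on IRF8 and BATF3 and cross-present antigen to CD8+ T cells.

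Each library was deposited as a list of summits, the points of highest signal in the called peaks. The lists held 66609 and 61737 summits in WT 1 and WT 2, and 69025 and 78296 in KO 1 and KO 2. The KO lists were the longer ones, by 9488 summits on average (mean 64173 ± 3445 SD against 73660 ± 6556, n = 2 each). An exact two-sided permutation test gave p = 0.333, the smallest value that 2 against 2 libraries can reach. Read depth is unknown, and since a longer list by itself puts more summits at genes, every list was shortened to its 61737 highest-scoring summits. The lowest score kept was then 3.56 and 1.31 in WT and 4.01 and 4.92 in KO. A count of 0 below means that no called summit was assigned, not that the chromatin was closed.

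The labelled subset was checked first. In the 4 cDC2 libraries Sirpa held 7, 5, 7 and 8 summits (WT 1, WT 2, KO 1, KO 2), Irf4 5, 7, 7 and 4, and Itgam, which encodes CD11b, 8, 10, 7 and 7. Cd8a, a cDC1 marker, held 0, 0, 0 and 1 summits in cDC2 against 5 to 7 in the cDC1 libraries. It was 1 of 18 listed cDC1 markers, which together held 110, 103, 103 and 106 summits in the same 4 libraries. The 20 listed cDC2 markers together held 112, 113, 114 and 116. These sums were close and do not check the label, so the contrast at Cd8a is that of a single gene. Counts in cDC1 are not given here for Sirpa, Irf4 and Itgam. The gate gene Xcr1 was listed at 0 summits in all 8 libraries and so could not serve as a check. Of the 9 granulocyte markers, S100a8, Mpo, Elane, Ngp and Camp were listed at 0 in all 4 cDC2 libraries, and the other 4 summed to 12 and 13 summits in WT and 13 and 13 in KO. Of the 10 erythroid and megakaryocyte markers, Gata1, Hba-a1, Hbb-bs, Alas2 and Pf4 were listed at 0, and the other 5 summed to 10 and 9 in WT and 8 and 8 in KO. A listed 0 does not speak of absent cells, since the housekeeping genes Eef2 and Rps18 were also listed at 0 in these 4 libraries.

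Hdac1 itself (chr4:129516104-129542646, mm10) held 1, 2, 1 and 1 summits in the 4 cDC2 libraries, and 2, 1, 1 and 1 in cDC1. The site shared by all libraries lay 153 bp outside one end of the gene. Its score ranked 8505 and 6316 in WT and 4842 and 4390 in KO, where 1 is the best score of the list. The log2 difference in summits, KO minus WT, was -0.29 ± 0.294 (SE, limma adjusted p = 1). Summits at one end of the gene do not report on the floxed part, so these values do not check the deletion.

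Summits of the 8 libraries less than or equal to 250 bp apart were joined into sites, which gave 87868 sites with a summit in at least 1 cDC2 library. The overlap of 2 libraries, as the Jaccard index (shared sites over sites found in either), was 0.653 for the WT pair and 0.671 for the KO pair. Across genotypes it was 0.671 for WT 1 with KO 1, 0.65 for WT 1 with KO 2, 0.648 for WT 2 with KO 1 and 0.631 for WT 2 with KO 2. WT 1 thus overlapped with KO 1 as much as the KO libraries did with each other, while the lowest overlap was also one between genotypes. Over the 40661 sites found in all 4 libraries, the score ranks were turned into normal scores (described below) and correlated. Pearson's correlation was 0.839 for the WT pair, 0.828 for the KO pair and 0.843 for WT 1 with KO 1. The other pairs between genotypes had 0.828 (WT 2 with KO 1), 0.804 (WT 1 with KO 2) and 0.799 (WT 2 with KO 2), so the highest and the lowest value were both between genotypes. These are values across sites of the same genome and carry no test.

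Of the 14065 protein-coding genes whose mean over the 8 libraries reached 1 summit, 11 passed the test for a difference between KO and WT in cDC2 (limma on log2(summits + 1), Benjamini-Hochberg adjusted p under 0.05), 10 with more summits in KO and 1 with fewer. That is 0.0782% of the genes tested. Every one of them rests on a handful of summits. Each gene held summits in both libraries of one genotype and in neither, or in 1 case in 1, of the other. The summits of the 2 libraries did not always lie at the same place. At Galnt18, for example, 1 of them lay at chr7:111780107 in KO 1 and at chr7:111713024 in KO 2. The higher genes were Fam163a, Septin1, Ddn, Has3, Galnt18, Krt8, Ogdhl, Pipox, Sh3gl3 and Sox17, and the lower one was Iho1. The count depends strongly on single libraries: it was 167 without WT 1, 54 without WT 2, 34 without KO 1 and 25 without KO 2, and 0 when genes with few summits were not filtered out. At an unadjusted p under 0.05, 485 genes were higher in KO (3.45%) and 308 lower (2.19%).

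Fam163a (chr1:156075956-156205453), whose protein's role is little described, held 0 and 1 summits in WT and 5 and 4 in KO. The log2 difference on the log2(summits + 1) scale was 1.95 ± 0.309 (SE, limma adjusted p = 0.024), and the groups did not overlap. In cDC1 the gene held 3, 4, 4 and 4 summits (WT 1, WT 2, KO 1, KO 2). It was also the gene with the most KO-only sites lying over 1 kb from any WT summit, 4 of them, a count shared with Pdgfrb, Tns1 and Zfp704.

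Septin1 (chr7:127212709-127232985), a GTP-binding cytoskeletal protein, held 0 and 0 summits in WT and 2 and 4 in KO (limma log2 difference 1.95 ± 0.319, adjusted p = 0.024). Has3 (chr8:106870242-106882902), a hyaluronan synthase, held 0 and 0 against 3 and 2 (1.79 ± 0.285, adjusted p = 0.024). Ddn (chr15:98803782-98807925), which encodes dendrin of neurons and podocytes, also held 0 and 0 against 3 and 2 (1.79 ± 0.315, adjusted p = 0.0449). These 3 genes carried summits in cDC1 of both genotypes, 1 or 2 per library except for 3 at Ddn in cDC1 WT 2.

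Another 6 genes held 0 and 0 summits in WT and 2 and 2 in KO, a log2 difference of 1.58 each. Krt8 (chr15:101996711-102004342) is an epithelial keratin, and its limma adjusted p was 0.024 (SE 0.247). Sh3gl3 (chr7:82173808-82307420) encodes an endophilin of membrane curvature (SE 0.243, limma adjusted p = 0.024). Galnt18 (chr7:111471656-111780067), a glycosyltransferase family gene, had an SE of 0.258 (limma adjusted p = 0.024). Ogdhl (chr14:32321982-32348151), related to the oxoglutarate dehydrogenase of the citric acid cycle, and Pipox (chr11:77880614-77893872), a peroxisomal oxidase, both had an SE of 0.259 (limma adjusted p = 0.024). Both averaged exactly 1 summit over the 8 libraries, and neither could be tested without KO 1 or without KO 2. Sox17 (chr1:4490928-4497426) is a transcription factor of endoderm and endothelium (SE 0.277, limma adjusted p = 0.0449). None of the 6 has a known defining role in dendritic cells. Of the 11 called genes, 4 (Has3, Ogdhl, Pipox and Sox17) reached the mean of 1 summit only through the KO libraries in which they were high, so they entered the test by the same summits that make their difference. Without those 2 libraries they averaged 0.833, 0.667, 0.667 and 0.833 summits.

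The cDC1 libraries put these genes in context. Sh3gl3 held 7, 7, 7 and 6 summits there, and Galnt18 4, 4, 4 and 6, so both were open in cDC1 whichever the genotype. Krt8 held 2, 2, 4 and 4, higher in both cDC1 KO libraries as well, although that difference did not pass (log2 0.74, limma adjusted p = 0.63). Ogdhl and Pipox held 1 summit in each cDC1 library.

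Iho1 (chr9:108403492-108431841), a gene of meiotic chromosome breaks, was the 1 lower gene, with 2 and 2 summits in WT and 0 and 0 in KO (limma log2 difference -1.58 ± 0.249, adjusted p = 0.024). In cDC1 it held 2 and 2 in WT and 3 and 3 in KO. The difference of the genotype effect between the subsets was -2 on the log2 scale and did not pass over all genes (limma adjusted p = 0.21).

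All of these summits were weak ones. Of the 54 summits behind the 11 genes in cDC2, 47 ranked in the last 33.3% of their list by score and 0 in the first 33.3%, with the median at 84.6% of the list. In the full deposited lists some of the zeros filled in: WT 1 then held 2 summits at Ddn and 1 each at Has3, Ogdhl and Septin1, and both KO libraries held 1 at Iho1. Fam163a, Galnt18, Krt8, Pipox, Sh3gl3 and Sox17 gained no WT summit there, but among the WT libraries only WT 1 could gain any. Its full list added 4872 summits and that of WT 2 added 0, against 7288 and 16559 in KO 1 and KO 2. These 6 genes also passed the test on the full lists, whose greater length in KO favours higher counts in KO. All 16 genes called there were higher in KO.

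**Figure D1:**
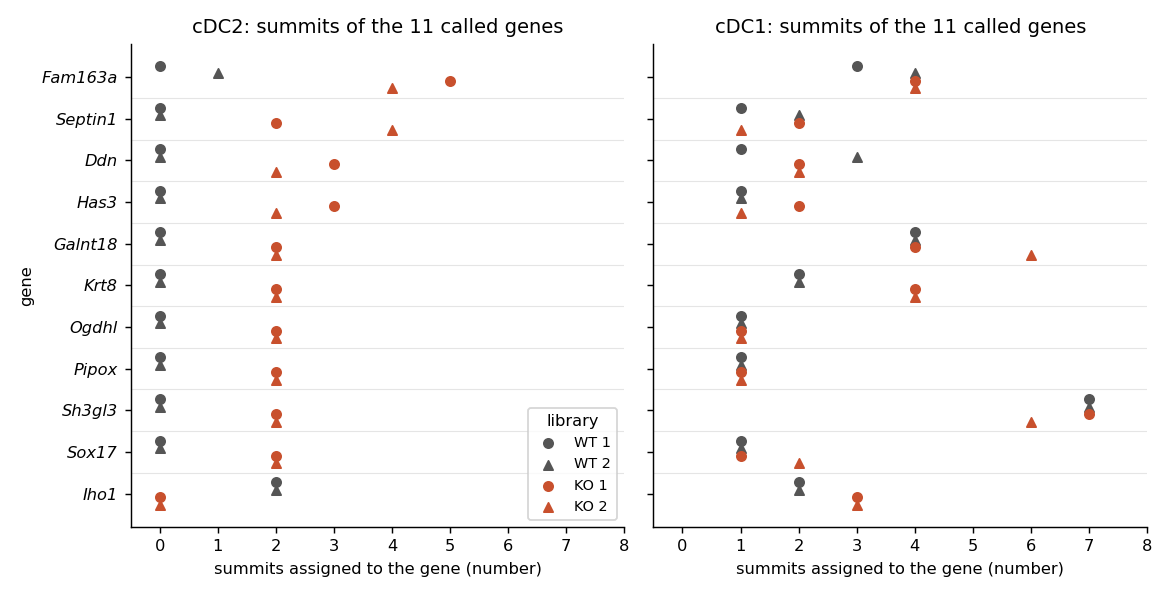
Number of summits (x axis) assigned to each of the 11 genes called between KO and WT in cDC2 (rows), with 1 point per library, in cDC2 (left) and cDC1 (right). In cDC2 the KO points of the 10 higher genes sit at 2 to 5 and the WT points at 0 or 1, while in cDC1 the genotypes overlap except at Krt8 and Iho1.

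Further genes with fewer summits in KO, named by their small unadjusted p, did not pass. Ccdc15 held 4 and 4 summits in WT and 1 and 1 in KO (limma log2 difference -1.32 ± 0.269, adjusted p = 0.171), and Sema5b, a semaphorin, 3 and 4 against 1 and 1 (-1.16 ± 0.255, adjusted p = 0.2). Adgrl3, a latrophilin adhesion receptor, had the largest change in number, 21 and 20 summits in WT and 11 and 9 in KO (-0.97 ± 0.243, limma adjusted p = 0.282). Its cDC1 libraries held 11, 11, 13 and 12, so the cDC2 KO values lay near the cDC1 level. The log2 difference of Adgrl3 in cDC2 was smaller with other list lengths. It was -0.52 with all deposited summits and -0.45 with lists cut to the 30868 highest-scoring summits. Mex3b held 4 and 7 against 2 and 2, and Mterf1a 4 and 1 against 0 and 0. The remaining genes of this kind, 1700042G07Rik, Cep95, Cnnm1 and the agouti gene a, held at most 5 summits in any cDC2 library.

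Across all genes tested, both KO libraries lay above both WT libraries at 6.79% of genes and below them at 6.26%, and the median log2 difference was 0. These shares are the background for the gene lists that follow. The 23 lists held 396 genes, of which 348 could be tested, and 0 passed the adjusted threshold by limma in any list. At an unadjusted p under 0.05 by limma, 9 of these genes were higher and 5 lower. List medians of the log2 difference ran from -0.415 to 0.196, and 13 of the 23 were 0.

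Genes that define cDC2 gave no calls. Of 18 cDC2 markers tested, 1 had both KO libraries above WT (Zeb2, 15 and 15 against 16 and 16 summits) and 2 below (Itgam and Clec4a4, the latter with 3 and 3 against 2 and 2), with a median of 0. Their summed summits were 112 and 113 in WT and 114 and 116 in KO. Notch2, the receptor that splenic cDC2 need, held 15, 15, 14 and 17 summits, and Rbpj, its nuclear partner, 15, 11, 13 and 15. In the Notch pathway list, 1 of 18 members had KO above WT and 0 below. That member was the ligand gene Dll4, with 3 and 2 summits against 5 and 4 (limma adjusted p = 0.874).

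Among 17 cDC1 markers, 1 lay above and 2 below, with a median of 0. Irf8, the transcription factor on which cDC1 depend, held 8 and 7 summits in WT and 11 and 10 in KO, against 14 to 16 in cDC1 (limma log2 difference 0.44 ± 0.243, adjusted p = 1). Batf3, its partner, went the other way with 10 and 10 against 9 and 9, as did Wdfy4, a cross-presentation gene, with 10 and 12 against 8 and 9. The wider list of DC transcription factors had 4 of 35 members above (11.4%) and 6 below (17.1%), again with a median of 0. The 4 were Irf8, Batf, Zeb2 and Nfkb1, and the 6 were Batf3, Runx1, Bcl6, Ikzf1, Tcf4 and Myb. Bcl6, a repressor active in cDC2, held 12 and 11 against 9 and 10 (limma adjusted p = 1). Batf2 alone had an unadjusted p under 0.05 (1 and 0 against 1 and 2 summits, limma adjusted p = 0.841), and its groups overlapped.

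Of 11 pan-cDC markers, 1 lay above WT and 0 below, with a median of -0.0222. That gene was Ciita, the transactivator of MHC class II, with 9 and 6 summits against 11 and 13 (limma log2 difference 0.63 ± 0.269, adjusted p = 0.841). It had 3 KO-only sites and 0 WT-only sites, one of them at chr16:10479873-10480042 beside the gene's end, although WT 1 held a summit at that place in its full list. Zbtb46 held 12, 9, 9 and 11 summits, and Flt3 14, 12, 14 and 13.

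The MHC class I and cross-presentation list had 4 of 18 members above WT (22.2%) and 1 below, with a median of 0. The 4 were H2-D1 (3 and 3 against 4 and 4), the peptide transporter gene Tap2 (2 and 2 against 3 and 3), its partner Tapbp (2 and 1 against 3 and 3) and the immunoproteasome gene Psmb9 (2 and 2 against 3 and 4). Tapbp had the smallest p of them (limma log2 difference 0.71 ± 0.267, adjusted p = 0.841). Tap2, Tapbp, Psmb9 and H2-D1 all lie in the MHC region, where neighbouring genes share out the summits between them.

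Genes of the deacetylase's own machinery were close to the background. Histone deacetylases had 1 of 11 members above (Hdac5, 3 and 3 against 5 and 4 summits) and 1 below (Hdac9, 35 and 32 against 25 and 29), with a median of -0.0412. Hdac2, the closest relative of Hdac1, held 2, 3, 2 and 2 summits. Subunits of the HDAC1 complexes had 4 of 34 above, among them Gatad2b, Rcor1 and Hmg20b, and 3 below (Sin3b, Mta1 and Tbl1xr1), with a median of 0. Tbl1xr1, an NCoR subunit, held 19 and 15 summits in WT and 11 and 10 in KO (limma log2 difference -0.64 ± 0.246, adjusted p = 0.841). In lists cut further, to the 30868 highest-scoring summits, its log2 difference was 0.16. It also had 5 WT-only sites and 0 KO-only sites, all 5 over 1 kb from any KO summit in the shortened lists, though summits lay within 100 bp of 2 of them in the full KO lists. Histone acetyltransferases and acetyl readers had 0 of 13 members on either side.

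Cell cycle genes had 2 of 25 members above and 4 below, with a median of 0. The cyclin-dependent kinase inhibitor gene Cdkn1a, a much-studied target of HDAC1, held 5 and 5 summits in WT and 4 and 4 in KO (limma adjusted p = 1), and the cyclin gene Ccnd1 13 and 10 against 8 and 8. In the 30868-summit lists the difference turned for both, to a log2 value of 0.37 for Cdkn1a and 0.13 for Ccnd1. Cell survival genes had 2 of 19 above (Bax and Bid) and 2 below (Bcl2l11 and Cflar). Housekeeping genes had 0 of 13 on either side.

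Innate sensing genes had 3 of 25 members above (Tlr4, Nod1 and Sting1, the last with 2 and 2 summits against 3 and 3) and 0 below, with a median of 0.0114. Interferon-stimulated genes, of interest because all mice received poly I:C, had 1 of 20 above (Rsad2) and 2 below (Oas1a and Trim30a), with a median of 0. Oas1a, an antiviral RNA sensor, held 3 and 3 summits against 1 and 1 (limma log2 difference -1 ± 0.312, adjusted p = 0.681). Ifit1, Ifit3 and Isg15 were listed at 0 in all 4 libraries. Maturation and cytokine genes had 1 of 27 above (Socs3) and 1 below (Ccl22), and receptors for growth factors and cytokines 0 of 19 above and 1 below (Ifngr1).

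Markers of other cells were read as a check on the sort. B cell markers had 3 of 5 tested members below WT (Pax5, Ms4a1 and Cr2) and 0 above, with a median of -0.415, the lowest of the lists. Pax5 held 11 and 10 summits in WT and 6 and 7 in KO (limma adjusted p = 0.841). The summed summits of all 9 B cell markers were 33 and 32 in WT and 23 and 28 in KO. T cell markers summed to 29 and 27 in WT and 33 and 40 in KO, with 1 of 9 above (Cd3e, 2 and 2 against 5 and 3, limma adjusted p = 0.841) and 0 below. Fewer cells of a type and a weaker signal per cell cannot be told apart here, and the part of these markers in other values was not tested. Plasmacytoid DC markers had 1 of 10 above (Runx2) and 1 below (Tcf4), monocyte and macrophage markers 0 of 11 above and 2 below (Adgre1 and Cd14), and NK cell markers 0 of 5 above and 1 below (Klrb1c). Granulocyte (4 tested) and erythroid and megakaryocyte markers (5 tested) had 0 on either side.

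**Figure D2:**
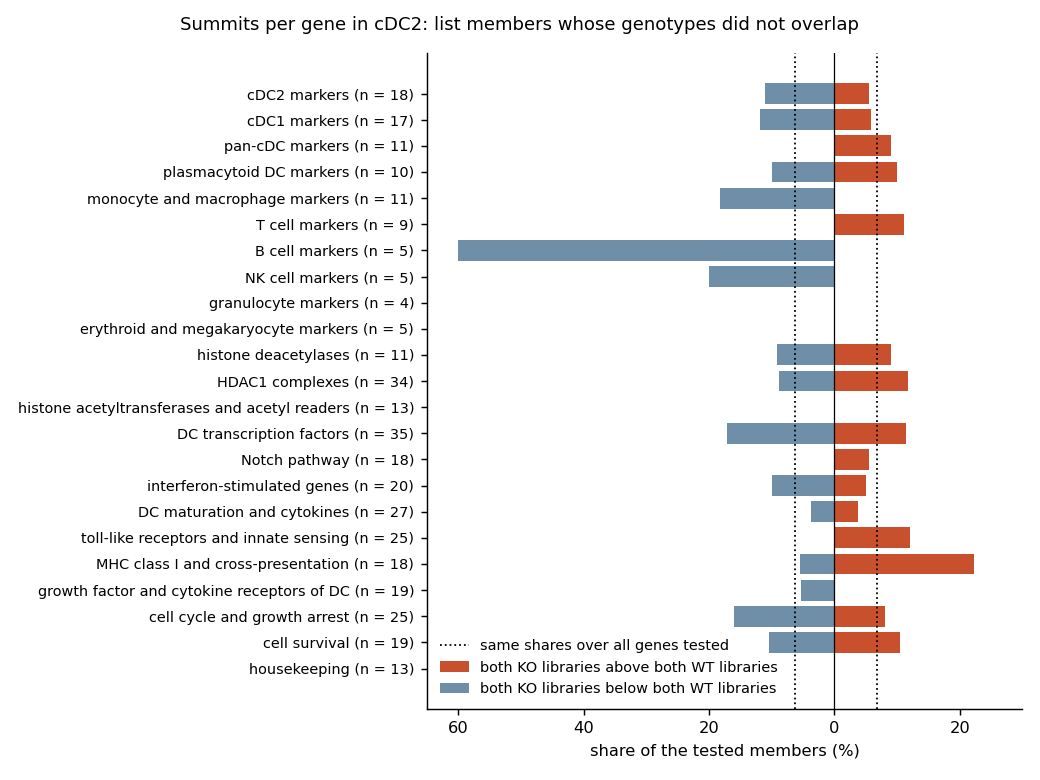
Share of the tested members of each gene list (rows, n tested in brackets) whose 2 KO libraries both held more summits than both WT libraries (right of 0) or fewer (left of 0). Dotted lines mark the same shares over all 14065 genes, 6.79% and 6.26%; the longest bar, 60% of the B cell markers, stands for 3 of 5 genes.

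Where all 4 libraries had a summit at a site, the score ranks were compared. Ranks within each library were turned into normal scores (mean 0, SD near 1, higher for stronger peaks) and tested with limma. Of 40661 shared sites, 0 passed (0%), and the lowest adjusted p was 0.743. At an unadjusted p under 0.05, 1350 sites ranked higher in KO and 1359 lower, 6.66% of the sites in all. The median difference was 0.00211.

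The sites with the smallest p were nevertheless far apart in rank. A site at chr12:42181725-42181843, 226196 bp from the nearest gene, ranked 55909 and 58368 in WT and 13911 and 10227 in KO, a difference of 2.67 ± 0.268 normal scores (limma adjusted p = 0.743). It had no summit in any of the 4 cDC1 libraries. With a variance trend and robust fitting it was 1 of 2 sites that passed (limma adjusted p = 0.0471). The other was a site inside Celsr2, a cadherin receptor gene, at chr3:108401872-108401986, which ranked 15737 and 17060 in WT and 3377 and 2235 in KO (limma adjusted p = 0.0306 in that fit). Celsr2 showed the same order in cDC1, with 19440 and 18051 in WT and 7870 and 7051 in KO.

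Sites inside Cit, a kinase of cytokinesis (50114 and 50137 against 12570 and 15300), and inside Sgms2, a sphingomyelin synthase (51458 and 47259 against 14773 and 10835), also ranked better in KO. A site 40026 bp from Pip4k2a, a phosphoinositide kinase gene, moved from 61463 and 61014 to 37570 and 33942. In the opposite direction, a site at one end of the integrin gene Itgb2l ranked 33106 and 29746 in WT and 61640 and 59751 in KO. A site 22942 bp from Zfp704 ranked 17069 and 17384 against 46235 and 47108, although the same gene had 4 KO-only sites. Sites near Sptssb, inside Auts2 and near Nsmaf also ranked lower in KO. The limma adjusted p was 0.743 for each of these sites.

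Among sites at DC identity genes, the smallest p belonged to a site inside Itgae, which encodes CD103, a cDC1 integrin. It ranked 59053 and 60490 in WT and 37860 and 27906 in KO, still behind the cDC1 libraries at 10573 to 24241. A site near Ccr7, the lymph node homing receptor, ranked 50588 and 53065 against 29412 and 29035. A site inside Ikzf1, a lymphoid and dendritic zinc-finger factor gene, at chr11:11763467-11763579 was strong in all libraries and ranked 4116 and 2530 in WT and 9684 and 13576 in KO. None of the 3 passed (limma adjusted p = 0.743, 0.743 and 0.746). Of the 236 shared sites at DC transcription factors, 5 were higher and 13 lower at an unadjusted p under 0.05 (7.63%, beside 6.66% of all shared sites). Of the 73 at cDC2 markers, 1 was higher and 4 lower, and of the 107 at HDAC1 complex genes, 2 were higher and 3 lower.

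Sites within 1 kb of a gene end ranked higher in KO as a class. Over the 9216 such sites found in all 8 libraries, the median normal score was 0.616 and 0.587 in cDC2 from WT mice and 0.689 and 0.719 in cDC2 from KO mice. In cDC1 it was 0.737 and 0.701 in WT and 0.809 and 0.805 in KO, so the shift was 0.103 in cDC2 and 0.0876 in cDC1. The genotypes did not overlap in either subset, and an exact permutation test gave p = 0.333 in each, the smallest possible with 2 against 2. Sites inside genes went the other way in cDC2, with -0.2 and -0.2 in WT against -0.241 and -0.228 in KO, and so did sites outside genes, with -0.259 and -0.237 against -0.283 and -0.273. Ranks are relative, so a rise of one class lowers the others, and a higher share of transposase cuts at promoters in a whole library cannot be told apart from a change at each gene.

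**Figure D3:**
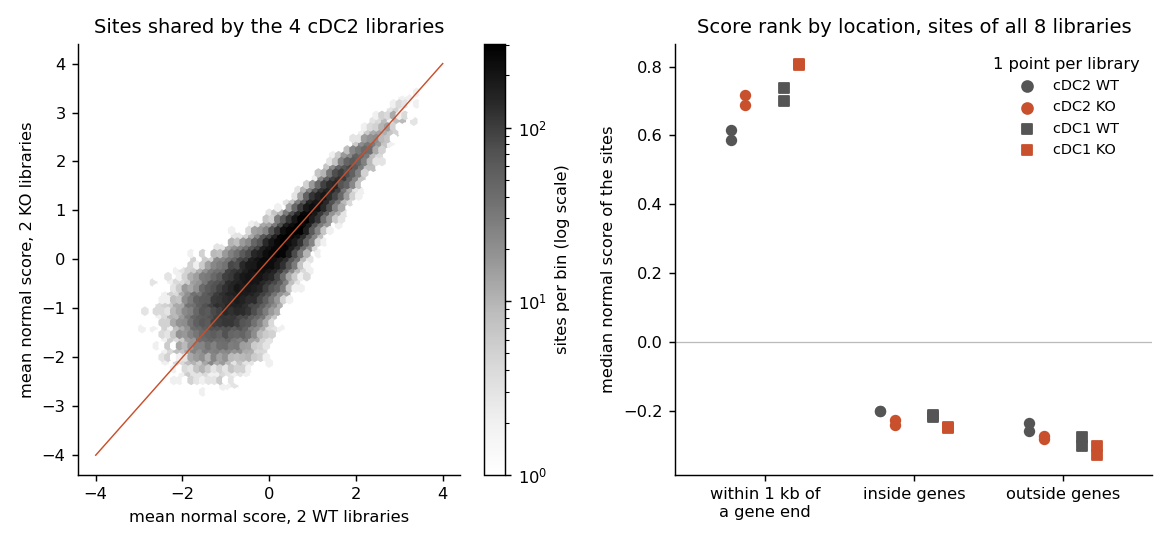
Left, mean normal score of each shared site in the 2 KO libraries against the 2 WT libraries of cDC2, with the line of equal scores (shading, sites per bin on a log scale). Right, median normal score by location for each of the 8 libraries: at gene ends the KO libraries sit above the WT libraries of their subset, 0.689 and 0.719 against 0.616 and 0.587 in cDC2.

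The location of summits was close in the 2 genotypes. Within 1 kb of a gene end lay 20.99% and 21.28% of the summits in WT and 21.04% and 20.64% in KO (21.1% ± 0.205 against 20.8% ± 0.283, SD, n = 2; exact permutation p = 0.667). Inside genes lay 43.8% and 43.0% against 43.3% and 43.5% (difference -0.01 percentage points, exact permutation p = 1), and outside genes 35.2% and 35.7% against 35.6% and 35.9% (0.3 points, exact permutation p = 0.667). With lists cut to the best 30868 summits the difference at gene ends was 0.585 points, and with the full lists -1.65 points, so its direction rests on the list length.

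More promoters held a summit in KO all the same. Promoters were taken from RefSeq (GRCm38.p6) as 250 bases before to 50 after a listed start site, which need not be the end of the gene span. Of 21262 protein-coding ones, 7503 and 7507 held a summit in WT and 7720 and 7699 in KO, 204 more on average. The cDC1 libraries held 7736 and 7797 in WT and 7907 and 8008 in KO. Both differences have an exact permutation p of 0.333. In the same libraries, the share of summits with another summit of that library within 1 kb was 18.7% and 19.6% in WT and 16% and 14.4% in KO, in the reverse order of the deposited list lengths. The part of this in the promoter count was not tested.

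In 39 protein-coding promoters both KO libraries had a summit and no WT library had one within 1 kb, and in 7 the reverse held. In the full deposited lists 28 and 2 of these stayed free of the other genotype. These numbers cannot be compared, since the full lists add 4872 and 0 summits in WT but 7288 and 16559 in KO. The 39 KO-only promoters belong to 38 genes, since Rap1gap entered with 2 overlapping windows that hold the same summits. The promoters below are the ones tied to the called genes, to a dendritic or lymphoid regulator, or to the best ranks. Their labels, KO only and WT only, speak of the cDC2 libraries alone. Each is RefSeq sequence of GRCm38.p6, 5′ to 3′ along the gene's strand, and capitals mark the stretch from 10 bases before the first to 10 bases after the last summit of the 2 libraries.
Spib, chr7:44532022-44532321, minus strand, summits in KO only: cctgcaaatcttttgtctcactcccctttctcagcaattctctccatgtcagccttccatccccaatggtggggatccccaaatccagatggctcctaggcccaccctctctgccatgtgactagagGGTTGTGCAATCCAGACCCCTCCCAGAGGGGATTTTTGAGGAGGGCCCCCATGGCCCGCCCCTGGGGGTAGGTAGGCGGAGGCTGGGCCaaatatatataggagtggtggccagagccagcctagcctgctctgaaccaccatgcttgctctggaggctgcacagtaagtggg
Lmo1, chr7:109175100-109175399, minus strand, summits in KO only: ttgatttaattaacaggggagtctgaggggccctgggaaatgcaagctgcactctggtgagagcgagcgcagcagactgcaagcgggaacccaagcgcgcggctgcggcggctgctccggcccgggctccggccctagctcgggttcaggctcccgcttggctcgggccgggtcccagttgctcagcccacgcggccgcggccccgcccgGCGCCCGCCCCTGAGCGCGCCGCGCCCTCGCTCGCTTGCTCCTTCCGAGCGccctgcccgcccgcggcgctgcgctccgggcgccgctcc
Sh3gl3, chr7:82174546-82174845, plus strand, summits in KO only: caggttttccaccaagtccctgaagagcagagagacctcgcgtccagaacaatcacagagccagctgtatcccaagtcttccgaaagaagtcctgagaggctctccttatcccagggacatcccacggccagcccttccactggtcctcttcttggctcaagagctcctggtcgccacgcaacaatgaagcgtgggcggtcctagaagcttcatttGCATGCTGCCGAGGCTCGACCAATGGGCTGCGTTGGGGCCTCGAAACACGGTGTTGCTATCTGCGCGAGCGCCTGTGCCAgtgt
Ogdhl, chr14:32321769-32322068, plus strand, summits in KO only: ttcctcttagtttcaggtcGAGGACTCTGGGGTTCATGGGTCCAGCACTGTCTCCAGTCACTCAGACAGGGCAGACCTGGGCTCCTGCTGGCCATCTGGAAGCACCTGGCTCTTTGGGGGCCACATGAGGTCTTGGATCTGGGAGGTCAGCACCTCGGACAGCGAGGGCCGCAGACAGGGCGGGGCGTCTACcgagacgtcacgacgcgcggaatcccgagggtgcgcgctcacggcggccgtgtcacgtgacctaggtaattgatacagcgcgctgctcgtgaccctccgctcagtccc
Asb2, chr12:103338341-103338640, minus strand, summits in WT only: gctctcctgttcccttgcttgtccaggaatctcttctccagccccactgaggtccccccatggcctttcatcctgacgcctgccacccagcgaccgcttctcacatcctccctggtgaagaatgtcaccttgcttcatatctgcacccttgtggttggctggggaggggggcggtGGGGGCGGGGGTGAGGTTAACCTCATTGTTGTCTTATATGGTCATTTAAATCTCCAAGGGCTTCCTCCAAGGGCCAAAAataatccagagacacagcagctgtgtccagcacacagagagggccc
Iho1, chr9:108431777-108432076, minus strand, summits in WT only: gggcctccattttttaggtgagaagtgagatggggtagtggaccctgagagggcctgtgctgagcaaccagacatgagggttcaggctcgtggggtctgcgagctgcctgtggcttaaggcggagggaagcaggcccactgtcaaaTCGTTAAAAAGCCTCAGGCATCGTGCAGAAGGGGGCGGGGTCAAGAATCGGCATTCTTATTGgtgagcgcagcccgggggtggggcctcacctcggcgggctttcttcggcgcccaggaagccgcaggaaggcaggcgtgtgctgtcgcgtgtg

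Spib encodes Spi-B, an ETS factor of plasmacytoid dendritic cells and B cells. Its promoter summits ranked 38525 and 35454 in the KO libraries, and no cDC1 library had one in the promoter. The WT libraries had none within 1 kb in their full lists, of which only that of WT 1 was longer than the shortened one. The gene as a whole held 2, 1, 2 and 2 summits, so its other sites kept the count level. Lmo1, a LIM-domain cofactor gene, had the best ranks among these autosomal promoters, 30370 and 29288. Its promoter held a summit in 2 of 4 cDC1 libraries. Sh3gl3 had its promoter summits at 37570 and 44554, and 4 of 4 cDC1 libraries also had one there. Its start site used here, chr7:82174796, lay inside the gene span given above. Ogdhl had ranks of 56893 and 33827, and a WT summit appeared within 1 kb in the full lists. Its promoter also held a summit in 4 of 4 cDC1 libraries. On the WT side, Asb2, a ubiquitin ligase subunit gene, ranked 40834 and 40082. It was 1 of the 2 without a cDC2 KO summit in the full lists. In cDC1, however, its promoter held a summit in 4 of 4 libraries, KO included. Elsewhere inside the gene, Asb2 held a site found only in KO in both subsets. Iho1 ranked 55909 and 53656, and a KO summit within 1 kb appeared in the full lists. Of the cDC1 libraries, 2 had a summit in the Iho1 promoter.

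These promoters were searched on both strands for 8 short motifs, none of which contains another. The GC box GGGCGG was present in 24 of the 39 KO-only promoters (61.5%) and 5 of the 7 WT-only ones, beside 73% of the 5551 promoters with a summit in all 4 cDC2 libraries and 46.2% of all protein-coding promoters. CCAAT was present in 28.2% of the KO-only promoters, against 47.8% and 38.2%. The AP-1 motif TGACTCA was found in 0 of 39 and 0 of 7 (4.66% of all), and the PU.1 motif GAGGAAGT in 0 of 39 and 2 of 7 (3.13% of all). The interferon-stimulated response element (3.35% of all promoters) and the cyclic AMP response element TGACGTCA (2.23% of all) were each found in 1 of the 39 KO-only promoters (2.56%). The E-box CACGTG was found in 5 (12.8%, against 7.84% of all) and the RUNX motif TGTGGT in 2 (5.13%, against 15% of all). Among the promoters printed above, all 6 held a GC box, and Spib, Sh3gl3 and Iho1 also held CCAAT. The mean GC content was 60% in KO-only promoters, 62.6% in those shared by the 4 libraries and 56.2% in all. A match is only a string of letters, and with 39 and 7 promoters the shares are a description. The overlapping Rap1gap windows count as 2 of the 39, and both held GC boxes.

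Beyond promoters, 2614 sites had a summit in both KO cDC2 libraries and in neither WT library (2.97% of the 87868 cDC2 sites), and 2157 had the reverse (2.45%). Sites found in exactly 2 libraries, 1 of each genotype, numbered 1676 to 2012 for each of the 4 mixed pairs and 7319 in all. The KO pair and the WT pair thus held somewhat more sites of their own than any mixed pair, a description of 6 pairs with no test. A further 23627 sites were found in a single cDC2 library, and 40661 in all 4.

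Sites of a single genotype were weak. Their mean rank lay at a median of 78.5% of the list for KO-only and 76.3% for WT-only sites, against 36.4% for sites of all 4 libraries. Only 71 of the 2614 KO-only sites (2.72%) ranked in the first 33.3% of the list, and 82 of the 2157 WT-only sites (3.8%). They were also less often at gene ends, 11.9% and 13.1% against 25.2% of the shared sites. Being found in few libraries and ranking low go together by construction, since a weak summit more easily drops off a list.

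**Figure D4:**
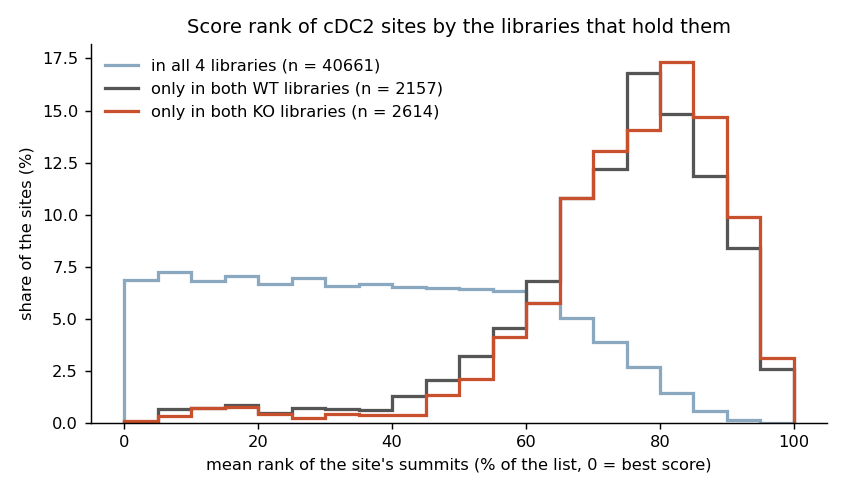
Share of sites (y axis, %) by the mean rank of their summits, as a percentage of the list with 0 the best score, for cDC2 sites found in all 4 libraries, only in both WT libraries or only in both KO libraries. Both 1-genotype curves peak near the weak end, with medians of 76.3% for WT and 78.5% for KO.

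The best-ranked sites of a single genotype were neighbours of sites of the other. The KO-only site with the best ranks, 1901 and 2933, lay 59 bp from an end of Mlf2 at chr6:124931298-124931360, and the nearest WT summit was 351 bp away. Bnip3l, Picalm and Otud5 were also among the 5 best-ranked KO-only sites, each with a WT summit 387 to 688 bp away. The WT-only sites with the best ranks, at Zbtb11, Bnip3l, Vapa, Atp11b and Lilr4b, had a KO summit 290 to 394 bp away. Bnip3l, a mitophagy receptor gene, was on both lists: its end held a KO summit at chr14:67008561 and a WT summit from chr14:67008948, 387 bp apart. At such places the summit lists of the genotypes differed in position by less than 1 kb. Zbtb46, the transcription factor that marks conventional dendritic cells, showed the same inside the gene, with a KO-only site at ranks 18996 and 17689 and a WT-only site at 11600 and 11581, 312 bp apart.

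Within 1 kb of a summit of the other genotype lay 532 of the KO-only sites (20.4%) and 728 of the WT-only sites (33.8%). The margin left 2082 and 1429 sites, and of these only 1 and 2 ranked in the first 33.3% of the list. The best-ranked KO-only sites of this kind lay at Cldn34c1 (12291 and 21464), near Prtg (23931 and 22369) and inside the complement gene C1ra (19789 and 24245). The Cldn34c1 summit fell on chromosome X in a family of near-identical copies, where the placing of reads is uncertain. The best-ranked WT-only sites lay inside Hnrnpu (8443 and 7583), 1149 bp from a KO summit, and inside Lemd3, Fbxl5 and Mrpl38.

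**Figure D5:**
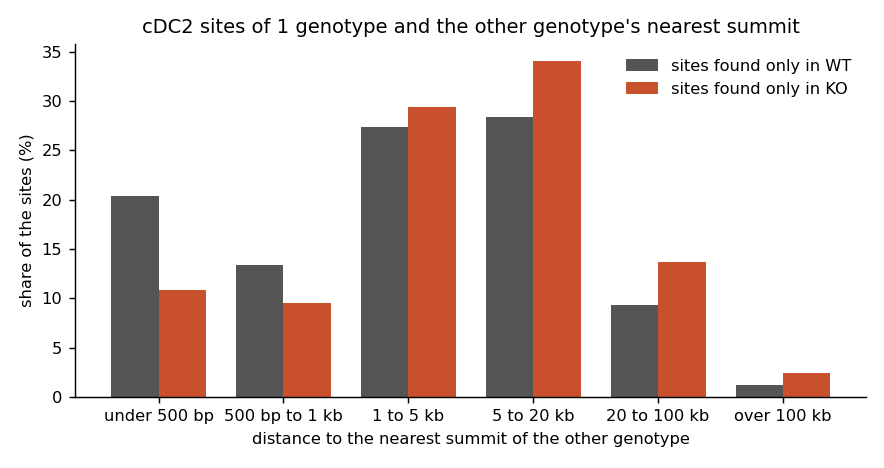
Share of WT-only and KO-only cDC2 sites (y axis, %) by the distance to the nearest summit of the other genotype in the shortened lists. Distances under 500 bp held 20.4% of the WT-only and 10.8% of the KO-only sites, and 5 to 20 kb held 28.4% and 34.1%.

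Several genes gathered more than 1 such site. Pdgfrb, the platelet-derived growth factor receptor of stromal cells, and Tns1, a focal adhesion gene, each had 5 KO-only sites. Pdgfrb held 3 and 2 summits in WT and 7 and 7 in KO, and Tns1 14 and 11 against 19 and 19. Adam11, Ciita, Erg, Gdf6, Mitf and Chd7 were among the genes with 3. Chd7 also had 2 WT-only sites, and Erg and Pdgfrb 1 each, while Tns1, Adam11, Ciita, Gdf6 and Mitf had 0. On the WT side Ssbp2 had 6, and Arid1b, a subunit of the BAF chromatin remodeller, Asap1 and Tbl1xr1 had 5 each. Arid1b held 39 and 36 summits in WT and 32 and 29 in KO, a log2 difference of -0.29 that became 0.091 with all deposited summits. The transcription factor genes Etv6 and Bcl6 had 4 and 3 WT-only sites, beside 0 and 1 KO-only sites. Genes with many sites have more chances to hold one: Asap1 had 58 sites in cDC2, Arid1b 46 and Etv6 60, whereas Pdgfrb had 8 and Fam163a 6.

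Over all sites of cDC2, 2.97% were KO-only and 2.45% WT-only, and the gene lists, with few such sites each, lay on both sides of these shares. DC transcription factors had 12 KO-only (2.41%) and 15 WT-only (3.01%) of 498 sites, and HDAC1 complex genes 6 (2.62%) and 7 (3.06%) of 229. The cDC2 markers had 4 (2.41%) and 1 (0.602%) of 166 sites. Their KO-only sites lay at Clec12a, Sirpa, Zeb2 and Klf4, and the WT-only one at Clec4a4, all at 71.7% of the list or later in the weaker library. The cDC1 markers had 4 of 151 sites only in KO (2.65%; Clec9a, Batf3, Cadm1 and Itgae) and 5 only in WT (3.31%; Ly75, Clec9a, Cadm1, Batf3 and Tlr11). Clec9a, Batf3 and Cadm1 thus stood on both sides, with sites 436 bp apart at Clec9a. Among the HDAC1 complex genes, KO-only sites lay at Rbbp7, Rcor1, Hmg20b, Mta3, Ing1 and Rcor2, and WT-only sites at Tbl1xr1, Mta1 and Mbd2. Of the histone deacetylases, Hdac8 had 1 KO-only site and Hdac9 2 WT-only sites. The transcription factor sites found only in KO lay at Bcl11a, Egr1, Nr4a2, Runx1, Batf, Bcl6, Myb, Zbtb46, Batf3, Zeb2 and Klf4, and those found only in WT at Etv6, Bcl6, Tcf4, Myb, Zbtb46, Batf3 and Spi1. Bcl6, Myb, Zbtb46 and Batf3 stood on both sides. Pan-cDC markers had 5 (4.59%) and 3 (2.75%) of 109 sites. Beside Zbtb46, Ciita and Flt3 had KO-only sites and Cd74 a WT-only one. B cell markers had 1 (1.79%) and 5 (8.93%) of 56 sites, and receptors for growth factors and cytokines 10 (5.38%) and 6 (3.23%) of 186.

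The cDC1 libraries were then set beside these sites. Of the KO-only sites of cDC2, 33.5% and 33.1% had a summit in the cDC1 WT libraries and 40.5% and 40.3% in the cDC1 KO libraries. Of the WT-only sites, 36.6% and 40.1% were found in cDC1 WT and 34.4% and 32.4% in cDC1 KO. Each kind was therefore seen more often in the cDC1 libraries of its own genotype, with no overlap between the genotypes. Over all sites of cDC2 the shares were 55% and 55.5% in cDC1 WT and 55.9% and 56.2% in cDC1 KO. These were also higher in KO without overlap, so that order alone is not particular to the KO-only sites. Of all sites of cDC2, 1.89% were KO-only in cDC1 and 1.57% WT-only there. Beside this, 94 sites were KO-only in both subsets (3.6% of the KO-only sites of cDC2 and 3.86% of the 2437 of cDC1), while 40 were KO-only in cDC2 and WT-only in cDC1. For WT-only sites the numbers were 78 (3.62% and 3.05%) and 32. The shares of 3.6% and 3.62% were thus above those over all sites, and no test was made of them. Libraries of one number and genotype may come from the same mice, which the labels do not say, so the subsets are not taken as independent.

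Of the 94 sites found only in KO in both subsets, 79 lay over 1 kb from any WT summit of either subset. They included sites at an end of Gnb3 (ranks 30235 and 25664 in cDC2), at an end of the dynein gene Dync1i1 (32042 and 33942), inside the death receptor family gene Tnfrsf19 (24278 and 36963) and at an end of the developmental T-box gene Tbx3 (31153 and 31955). The full WT cDC2 lists held a summit 20 bp from the Gnb3 site and one in the Tbx3 site, and none within 1 kb of the others. These sites were picked from the list by rank after their values were seen.

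The genotype effect was compared between the subsets gene by gene. The interaction term, KO minus WT in cDC2 less the same in cDC1, passed for 0 of 14065 genes (0%, limma adjusted p), and 537 had an unadjusted p under 0.05. This count moved with each library left out: it was 38 without cDC2 WT 1, 32 without cDC2 WT 2, 7 without cDC2 KO 1 and 5 without cDC2 KO 2, and 34, 14, 4 and 1 without the cDC1 libraries in the same order. It also moved with the variance model, to 299 under plain limma and 300 with a variance trend and robust fitting. With all 8 libraries the effect in cDC2 is not shown to differ from that in cDC1 at any single gene, and with 2 libraries a group this does not show that the effects are alike.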

How the data were processed

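ATAC-seq summit lists of 8 libraries were used as deposited, 1 file per library. Per the submitters' processing notes, Bowtie2, SAMtools, MACS2 and MultiQC were used with the mouse genome GRCm38 (mm10); versions and peak-calling settings are not given in the sources used here. The score that the authors deposited with each summit is a negative log10 p-type value, taken from its lowest values (1.3 to 1.36) to be a −log10 q-value. It rises with depth, so only its order within a library was used. The lists hold no read counts, so depth and counting intervals are unknown, and the number of libraries limits the precision.

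Groups came from the sample titles. The 61737 highest-scoring summits per library were kept, and each was assigned to the nearest of 21883 protein-coding gene spans of RefSeq (GRCm38.p6) within 50 kb. The spans have no strand or exons, so locations are within 1 kb of a gene end, inside or outside genes. Sites chain summits within 250 bp. Summits per gene were tested as log2(summits + 1) with limma 3.58.1 in R 4.3.3. The fit had 4 group means over the 8 libraries, which then share one estimate of spread, and a rounding variance of 0.0833 counts squared was added, since repeated whole numbers otherwise give a spread of 0. Genes needed a mean of at least 1 summit, and calls a Benjamini-Hochberg adjusted p under 0.05. Ranks at the sites shared by the 4 cDC2 libraries were tested as normal scores with limma. Location shares had an exact two-sided permutation test. The fits were checked on simulated data.

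Named were Hdac1, called genes (up to 10 per direction, filled by smallest p where the lower direction had fewer), list members past the threshold and the 3 with the most summits per list, list members whose groups did not overlap or that mark a cell type, and, for ranks and 1-genotype sites, 5 per direction. Comparison members and gene lists were chosen with earlier results of these data known. Alternatives were other list lengths, pseudocounts, filters, distances, chaining, variance models, a replicate block and leaving out each library. Promoter sequences are from RefSeq (GRCm38.p6). No promoter of Hdac1 and no genome sequence was used here, and 5 list entries matched no protein-coding row (Trac, Mx1, Mx2, Tmem173, Mb21d1). Some genes that the naming rule selects are not reported here.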

Additional observations from a re-analysis of the deposited data

Results flagged for a closer look

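In 2 of the named genes the genotypes moved in opposite directions in the 2 subsets without overlapping in either. The named genes were 11 called and 45 not called, and these 2 were named for their difference in cDC2. In cDC2 alone, both KO libraries lay above both WT libraries at 6.79% of all genes tested and below them at 6.26%. The share of all genes that move in opposite directions in the 2 subsets was not counted. Iho1 held 2 and 2 summits in WT cDC2 and 0 and 0 in KO (log2 difference -1.58), but 2 and 2 against 3 and 3 in cDC1. The interaction term was -2 on the log2 scale, with a limma adjusted p of 0.21. Adgrl3 held 21 and 20 against 11 and 9 in cDC2 (log2 difference -0.97), but 11 and 11 against 13 and 12 in cDC1, with an interaction of -1.14 (limma adjusted p = 0.895). Neither difference between subsets passed over all genes. With all deposited summits the log2 difference of Adgrl3 in cDC2 was -0.52, and with 30868-summit lists -0.45.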

How the results depend on the processing

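The count of 11 called genes between KO and WT in cDC2 was 16 with all deposited summits and 10 with a 10 kb limit, but 72 with lists of 30868 summits, 7 with a pseudocount of 0.5, 2 for genes averaging 3 summits or more, 66 with the cDC2 libraries alone, 207 with plain limma, 206 with a variance trend and robust fitting, and 0 without the filter on low genes (727 at an unadjusted p under 0.05, limma). Leaving out each library gave 25 to 167; the group left with 1 library is then assumed to vary like the others. With the replicate number as a block it was 66. The labels do not say whether the numbers pair the libraries. Deviations of same-numbered WT and KO libraries of cDC2 correlated at 0.0362 over genes and 0.0319 over sites, which does not settle it. All 11 genes were among those called with the cDC2 libraries alone, with the block and without either WT library, 6 with plain limma and 0 with the 30868-summit lists, where 1 could be tested. Of the 45 named genes that did not pass, 12 passed in some alternative and 9 changed sign in one (Arid1b, Ccnd1, Cdkn1a, Flt3, Irf4, Notch2, Rbpj, Tbl1xr1 and Zbtb46), and no called gene changed direction in the alternatives where it could be tested. For the difference of the effect between subsets, 0 genes became 35 with 30868-summit lists, 299 with plain limma, 300 with a variance trend and robust fitting, 1 to 38 without each of the 8 libraries and 38 with the replicate block within genotype. It stayed 0 with all deposited summits, a pseudocount of 0.5, no filter, a mean of 3 summits and a 10 kb limit. For this difference the variance trend, the libraries left out, the pseudocount, the filters and the 10 kb limit were chosen after seeing the data. For score ranks, 0 sites became 2 with a variance trend and robust fitting, and stayed 0 in the other alternatives run, the replicate block included. With all deposited summits the location differences were -1.65 points at gene ends, 0.795 inside genes and 0.85 outside, and with 30868-summit lists 0.585 at gene ends and -0.65 inside genes. The replicate block, as the mean of differences within numbers, left them at -0.295, -0.01 and 0.3. KO-only sites numbered 4566 with all deposited summits and 1183 with 30868-summit lists, and WT-only sites 1365 and 1121. Without a summit of the other genotype within 1 kb in its full list, WT-only sites numbered 661, and in the shortened lists, a margin chosen after seeing the data, 1429. KO-only sites outnumbered WT-only sites in each of these. With all deposited summits, and with the full lists as the screen, this does not check the order, since the longer KO lists favour KO-only sites. With lists of equal length the numbers were 1183 against 1121 for 30868 summits, a small difference. They were 2082 against 1429 for the 1 kb margin in the shortened lists. The cause of the changes was not tested, apart from list length where that was the setting changed.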
